A study of Caenorhabditis elegans with 2 samples.

Results

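The genes described are the protein-coding genes of *Caenorhabditis elegans* whose names begin with hsp-, cct-, dnj- or pfd-, 65 of the 19973 protein-coding genes in the Ensembl annotation of the WBcel235 genome. They were chosen by name and comprised 22 *hsp* genes, 8 *cct* genes, 29 *dnj* genes and 6 *pfd* genes. Each was scored from the binding lists of the transcription factor LIN-11 by the strongest summit lying between 1000 bp upstream and 200 bp downstream of one of its transcript starts, here called its promoter window. Because these binding values were used to pick out and score the set, they are given as a description, without a test.

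Chaperones help other proteins reach and keep their folded shape. The *hsp* genes encode heat shock proteins of several unrelated kinds, among them the HSP60, HSP70, HSP90 and small heat shock proteins, some present in unstressed cells and others made mainly after heat or other stress. The *cct* genes encode subunits of the cytosolic chaperonin, a barrel that folds actin and tubulin, the *pfd* genes encode subunits of prefoldin, which passes unfolded chains to that chaperonin, and the *dnj* genes encode J-domain proteins, which stimulate the ATPase of HSP70 proteins. LIN-11 is a LIM homeodomain factor known for its roles in the vulva, the uterus and certain neurons.

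Binding was measured by chromatin immunoprecipitation and sequencing (ChIP-seq) in 1 group of 2 biological replicates of whole larvae of strain OP62, taken at the L2 stage. Both replicates had the genotype unc-119(ed3) III with the transgene wgIs62, which gives LIN-11 with GFP and FLAG at its C terminus. The sexes were pooled and the age is recorded as unknown. The antibody entry reads lin-11, the replicate 1 stock came from Michael Snyder and the replicate 2 stock from the CGC, and the replicates are labelled differently for fragmentation, with sonication named for replicate 1 and a size range of 150-350 for replicate 2. There was no second genotype, stage or treatment, and no control library was analysed here. Signal from whole animals averages over all cells, so binding in a few cells and weak binding in many cells cannot be told apart. Peak lists hold no expression values, so the labelled stage could not be checked against marker genes.

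The authors deposited 4 lists on this genome. The optimal list held 1917 peaks, and these were the 1917 regions of highest signal in the list called from pooled reads. The pooled list and the list of each replicate held 30000 regions each, which the deposited notes describe as peaks together with background, and a region of these lists is called a candidate here. Signal is the authors' own value for a region, in their unstated units, and ran from 5.43 to 356.0 in the pooled list, from 2.79 to 128.5 in replicate 1 and from 3.00 to 269.2 in replicate 2. Signals were therefore not compared in size between lists, and each gene is described by its signal and its rank within each list. The read depth behind the signals is unknown. A gene with an optimal peak summit in its promoter window is called bound, which names a position and not regulation of the gene.

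Sequence is shown first for the promoters on which the description turns. The first 6 are those of the bound *hsp* genes, which encode major chaperones of the cytosol, mitochondria and endoplasmic reticulum, and the next 4 are the strongest bound *cct* and *pfd* promoters and that of *dnj-13*. The last is that of the heat-inducible gene *hsp-16.2*, whose summit fell outside the optimal list. Each run is 101 bases centred on the pooled summit, read from the NCBI RefSeq WBcel235 sequence (the assembly also called ce11), 5′ to 3′ on the strand of the named gene. Capitals mark matches, on either strand, to the heat shock words GAANNTTC and TTCNNGAA and to the word CCAATC. They also mark the word GGTCTC, seen for example at *hsp-6*, and the word CTGCGTC, seen at *hsp-3*.
hsp-60: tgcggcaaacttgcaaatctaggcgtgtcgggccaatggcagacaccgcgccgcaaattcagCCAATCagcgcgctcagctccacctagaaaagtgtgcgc
hsp-90: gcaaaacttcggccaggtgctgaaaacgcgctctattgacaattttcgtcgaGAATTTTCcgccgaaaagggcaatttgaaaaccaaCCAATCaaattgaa
hsp-1: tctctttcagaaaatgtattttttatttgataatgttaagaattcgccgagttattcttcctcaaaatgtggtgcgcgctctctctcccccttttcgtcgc
hsp-6: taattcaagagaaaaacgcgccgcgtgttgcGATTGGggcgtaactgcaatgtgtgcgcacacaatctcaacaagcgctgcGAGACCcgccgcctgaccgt
hsp-3: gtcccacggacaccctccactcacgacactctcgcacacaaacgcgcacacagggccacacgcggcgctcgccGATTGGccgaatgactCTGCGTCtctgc
hsp-110: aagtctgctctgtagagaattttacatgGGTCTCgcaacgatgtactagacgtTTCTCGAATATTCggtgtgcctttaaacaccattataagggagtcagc
cct-8: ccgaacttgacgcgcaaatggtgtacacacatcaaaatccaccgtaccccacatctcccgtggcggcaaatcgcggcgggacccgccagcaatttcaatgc
cct-1: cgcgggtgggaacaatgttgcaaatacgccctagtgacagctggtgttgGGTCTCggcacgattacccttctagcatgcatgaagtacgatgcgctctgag
pfd-1: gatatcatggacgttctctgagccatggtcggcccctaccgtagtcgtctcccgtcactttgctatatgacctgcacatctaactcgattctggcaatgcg
dnj-13: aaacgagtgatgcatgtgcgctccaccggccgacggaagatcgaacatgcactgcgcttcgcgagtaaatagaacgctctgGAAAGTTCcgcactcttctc
hsp-16.2: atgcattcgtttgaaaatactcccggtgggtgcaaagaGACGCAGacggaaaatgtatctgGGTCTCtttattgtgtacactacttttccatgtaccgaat
These runs lie at chrIII:1619096-1619196 on the plus strand for *hsp-60*, chrV:14685719-14685819 on the plus strand for *hsp-90*, chrIV:17278504-17278604 on the plus strand for *hsp-1* and chrV:4827139-4827239 on the minus strand for *hsp-6*. They lie at chrX:6092150-6092250 on the minus strand for *hsp-3*, chrIII:8447099-8447199 on the minus strand for *hsp-110*, chrIV:1094310-1094410 on the minus strand for *cct-8* and chrII:8185151-8185251 on the plus strand for *cct-1*. The others lie at chrIV:11149716-11149816 on the plus strand for *pfd-1*, chrII:11545434-11545534 on the plus strand for *dnj-13* and chrV:1805060-1805160 on the minus strand for *hsp-16.2*. None of the 11 stretches overlapped an annotated exon.

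Of the 65 genes, 19 were bound, a share of 29.2%, where 8.39% of all protein-coding genes were bound (1675 of 19973). The bound genes were 6 *hsp*, 4 *cct*, 7 *dnj* and 2 *pfd* genes. The count depended on how a summit between divergent genes is assigned. In 13 of the 19 genes the summit lay closer to the transcript start of another gene, and when each summit was given to the nearest start alone, 6 of the 65 genes (9.23%) were bound, against 6.03% of all genes. The 6 were *hsp-3*, *hsp-1*, *dnj-9*, *dnj-10*, *dnj-13* and *pfd-5*. Of all 1675 bound genes, 71.9% kept their peak under that assignment, and of the 19 chaperone genes 31.6% kept it.

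Shares above the background were also seen in the wider set of candidates. A pooled candidate lay in the promoter window of 47 of the 65 genes (72.3%), against 41.0% of all protein-coding genes. Candidates in both replicate lists were present for 39 genes (60.0%), against 26.7% of all genes, and under assignment to the nearest start for 20 genes (30.8%), against 20.8% of all genes. An optimal peak that also ranked among the strongest 1917 regions of both replicates was present for 16 genes (24.6%), against 5.32% of all genes. The peaks that the chaperone genes did have were high in the list. Among bound genes, the median signal was 92.0 for the 19 chaperone genes and 50.2 for all 1675 genes. Of the 19, 15 had a summit among the 500 strongest peaks (78.9%), against 31.9% of all bound genes. Among the 100 strongest, 7 of the 19 had one, and 127 of all 1675 bound genes did. Of these 7, only *hsp-3* kept its peak when each summit was given to the nearest start.

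**Figure D1:**
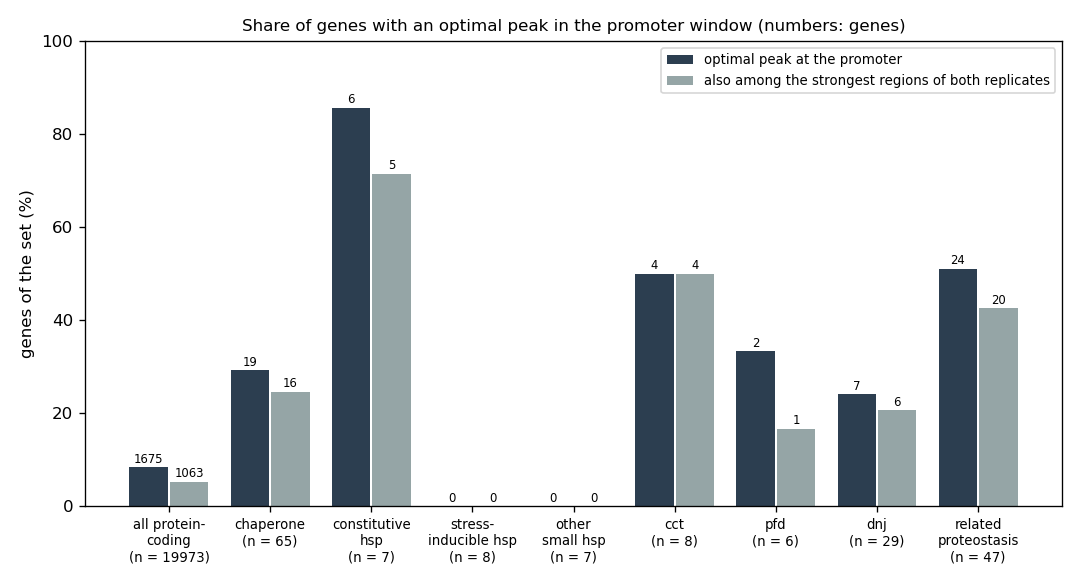
Share of genes with an optimal LIN-11 peak in the promoter window, in percent of the genes of each set, for each family and *hsp* class and for all protein-coding genes (dark bars), and share whose peak was also among the strongest regions of both replicates (light bars). Numbers over the bars count genes. The constitutive *hsp* genes reached 85.7% and the *cct* genes 50%, the stress-inducible *hsp* genes stood at 0, and all genes stood at 8.39%.

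Among the *hsp* genes, all 6 with an optimal peak were constitutive ones. Of the 7 *hsp* genes placed here as constitutive, meaning that they are known to be made without stress, 6 were bound (85.7%). Of the 8 placed as stress-inducible, 0 were bound, and of the 7 other small *hsp* genes, 0 were bound. With 8.39% of all genes bound, a count of 0 in a class of this size is near the background, and it is not read as a lack of binding particular to these classes. The classes were assigned by hand from general knowledge of the genes, with earlier results of these data known. The contrast between them is therefore a description only. Some constitutive members, such as *hsp-6* and *hsp-60*, are known to rise further under mitochondrial stress. Under assignment to the nearest start, 2 of the 7 constitutive genes (28.6%) and 0 of the 8 stress-inducible genes were bound, against 6.03% of all genes.

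The highest peak of the set stood at *hsp-60* (WBGene00002025), which encodes the mitochondrial chaperonin. Its region, at chrIII:1619050-1619239, had a signal of 254.4 and ranked 4 in the pooled list, with a signal of 70.2 and rank 16 in replicate 1 and a signal of 186 and rank 4 in replicate 2. The summit lay 596 bp upstream of *hsp-60* and 217 bp from the start of the oppositely transcribed gene *Y22D7AL.10*. It was the most distant summit of the 19, and the gene lost its peak in a window of 500 bp upstream to 100 bp downstream. The mitochondrial HSP70 gene *hsp-6* (WBGene00002010), whose product works beside HSP-60 in the same compartment, had a region at chrV:4827027-4827350 with a signal of 93.3 and rank 203. It ranked 150 in replicate 1, with a signal of 42.0, and 329 in replicate 2, with a signal of 49.1. This summit too was shared, lying 429 bp upstream of *hsp-6* and 171 bp from *C37H5.5*. The third mitochondrial member, *hsp-75*, the counterpart of mammalian TRAP1, was the constitutive gene without a peak. It had no pooled candidate and a replicate 2 candidate of signal 3.17 at rank 28287.

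The constitutive genes of the cytosolic HSP70 and HSP90 machinery were all bound, namely *hsp-90*, *hsp-1* and *hsp-110*. The gene for cytosolic HSP90, *hsp-90* (WBGene00000915, formerly *daf-21*), had a region at chrV:14685607-14685930 with a signal of 127.5 and rank 80. Its signal was 43.0 at rank 138 in replicate 1 and 84.9 at rank 73 in replicate 2. The summit lay 391 bp upstream of a start of *hsp-90*, inside an intron of its longer transcript, and 284 bp from *C47E8.4*. The constitutive cytosolic HSP70 gene *hsp-1* (WBGene00002005) had a region at chrIV:17278392-17278715 with a signal of 92.0 and rank 208, with rank 318 in replicate 1 (signal 31.9) and rank 215 in replicate 2 (signal 58.7). Its summit lay 405 bp upstream in no other gene's window. The nucleotide exchange factor gene *hsp-110* (WBGene00016250) was the one bound *hsp* gene on which the replicates differed widely. Its region at chrIII:8446987-8447310 had a signal of 54.5 and rank 710, and it ranked 385 in replicate 2 (signal 46.4) but 8587 in replicate 1 (signal 6.38). That summit lay 240 bp upstream of *hsp-110* and 204 bp from *rpn-3*, which encodes a proteasome subunit.

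The pair of genes for BiP, the HSP70 of the endoplasmic reticulum, fell on opposite sides. The constitutive copy *hsp-3* (WBGene00002007) had a region at chrX:6092038-6092361 with a signal of 126.4 and rank 82, and it ranked 103 in replicate 1 (signal 46.8) and 90 in replicate 2 (signal 78.4). Its summit lay 76 bp upstream, the closest of the 19, and in no other gene's window. The copy induced by stress of the endoplasmic reticulum, *hsp-4* (WBGene00002008), had a pooled candidate with a signal of 15.4 at rank 4576. That summit fell in a coding exon of *hsp-4* itself, 509 bp before an internal transcript start. It was matched in replicate 2 (signal 6.61, rank 9144) but not in replicate 1. The strongest replicate 1 candidate in that window, of signal 7.47 at rank 6086, was at another position.

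The heat-inducible genes had weak candidates or none. *hsp-16.41* (WBGene00002018) reached a pooled signal of 23.7 at rank 2414, with rank 2856 in replicate 1 (signal 10.6) and rank 3861 in replicate 2 (signal 10.4). That summit lay 898 bp upstream, beyond the far end of the neighbouring gene *hsp-16.2*, and so not between the 2 genes. The divergent partner *hsp-16.2* (WBGene00002016) had a signal of 21.8 at rank 2690, with a signal of 12.3 at rank 2100 in replicate 1 and 4.69 at rank 16839 in replicate 2. This summit, 153 bp upstream of *hsp-16.2*, lay between the 2 genes and also in the promoter window of *hsp-16.41*. Both small heat shock genes thus stood below the lowest optimal signal of 27.8. One *hsp-16.1* gene (WBGene00002017) had a candidate of signal 8.83 at rank 13985, while the other copy of that name and both *hsp-16.48* genes had none. The inducible cytosolic HSP70 gene *hsp-70* had no pooled candidate, but replicate 1 held one with a signal of 11.0 at rank 2632.

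Sequence copies limit the reading of these zeros. The promoter windows of both *hsp-16.48* genes held no 36-base word that occurs once in the genome, and those of the *hsp-16.1* genes held 3.52% and 6.78% such words, so short reads from them mostly match several places. How the alignment treated such reads is not stated, and the part of this in the counts was not tested. Among genes whose window was over 90% unique, 0 of 4 stress-inducible and 6 of 7 constitutive *hsp* genes were bound, and 18 of 56 chaperone genes were bound. The share of all genes under this filter was not computed, so these counts are not read against a background. The median window of the 65 genes was 100% unique.

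The other small heat shock genes also lacked optimal peaks. *hsp-43* had a pooled candidate of signal 15.0 at rank 4775, and *hsp-25* one of signal 9.07 at rank 13297 that lay in its own coding exon. *hsp-12.6* had a candidate in replicate 1 only, of signal 5.28 at rank 12344, and *hsp-12.1*, *hsp-12.2*, *hsp-12.3* and *hsp-17* had no pooled candidate. The nearest optimal summit to *hsp-12.3* lay 932 bp downstream of its start, outside the window, and that to *hsp-17* lay 114596 bp upstream.

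**Figure D2:**
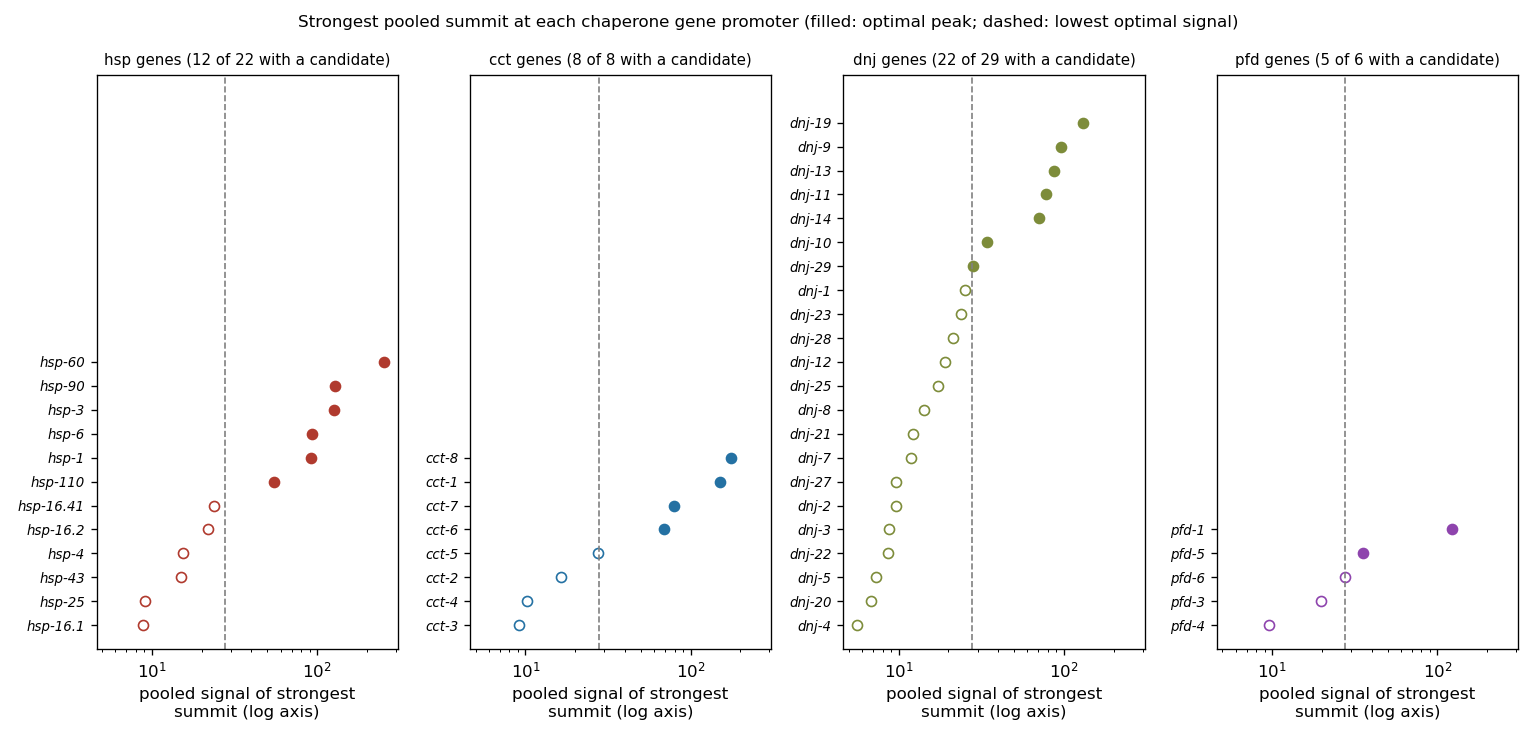
Strongest pooled signal in the promoter window of each chaperone gene, on a log axis in the authors’ units, by family, with bound genes filled, other genes open, and the lowest optimal signal as a dashed line. *hsp-60* stands highest at 254.4, the bound genes run down to 28.2 at *dnj-29*, and the stress-inducible *hsp* genes with a candidate lie at or below 23.7.

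The chaperonin subunit genes all had candidates. Each of the 8 *cct* genes had a pooled candidate, against 41.0% of all genes, and a candidate in both replicates, against 26.7%. Of the 8, 4 were bound (50%, against 8.39% of all genes). *cct-8* (WBGene00021934) had a region at chrIV:1094285-1094451 with a signal of 176.1 and rank 21, with rank 46 in replicate 1 (signal 57.8) and rank 16 in replicate 2 (signal 122). *cct-1* (WBGene00000377) had a region at chrII:8185149-8185256 with a signal of 150.4 and rank 41, with rank 295 in replicate 1 (signal 32.8) and rank 25 in replicate 2 (signal 118). Both therefore ranked higher in replicate 2. *cct-7* (WBGene00020391), at chrV:1871769-1872092, had a signal of 79.5 and rank 302, with rank 201 in replicate 1 (signal 37.4) and rank 392 in replicate 2 (signal 46.1). *cct-6* (WBGene00000381), at chrIII:5855837-5856160, had a signal of 69.4 and rank 407, with rank 149 in replicate 1 (signal 42.0) and rank 1223 in replicate 2 (signal 24.0). These last subunits ranked higher in replicate 1.

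None of the 4 bound *cct* genes kept its peak when summits were given to the nearest start. The *cct-8* summit lay 440 bp upstream of that gene and 181 bp from *Y55F3AR.2*. The *cct-1* summit lay 242 bp upstream and 178 bp from *mig-5*, a Dishevelled gene of Wnt signalling. The *cct-7* summit lay 315 bp upstream and 124 bp from *T10B5.4*, and the *cct-6* summit lay 312 bp upstream and 19 bp from *alh-9*. In each pair the neighbour was transcribed in the opposite direction.

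The other *cct* subunits had weaker candidates. *cct-5* stood just under the optimal list, with a signal of 27.5 at rank 1947. It had a signal of 13.6 at rank 2592 in replicate 2 and no matching summit in replicate 1. The strongest replicate 1 candidate in its window had a signal of only 3.43, at rank 23890. *cct-2* had a signal of 16.5 at rank 4073, *cct-4* one of 10.2 at rank 10471 and *cct-3* one of 9.16 at rank 13053. The *cct-4* summit ranked 1552 in replicate 1, with a signal of 14.3, but had no match within 100 bp in replicate 2. The strongest replicate 2 candidate in that window, of signal 13.5 at rank 2629, was at another position. Although the subunits form a single complex, their promoters covered the range from rank 21 to rank 13053.

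Prefoldin showed a similar spread. *pfd-1* (WBGene00007443) had a region at chrIV:11149604-11149927 with a signal of 122.8 and rank 92, with rank 67 in replicate 1 (signal 53.7) and rank 132 in replicate 2 (signal 69.5). Its summit lay 347 bp upstream and 262 bp from the divergent gene *F01G4.6*. *pfd-5* (WBGene00020112), at chrIII:7198878-7199201, had a signal of 35.5 and rank 1394, with rank 2344 in replicate 1 (signal 11.7) and rank 1538 in replicate 2 (signal 20.5). That summit lay 156 bp upstream of *pfd-5* and 967 bp from *exos-9*, a gene on the same strand. *pfd-6* fell just outside the optimal list with a signal of 27.6 at rank 1934, *pfd-3* had a signal of 19.7 at rank 3104, *pfd-4* shared a candidate of 9.57 with *dnj-2*, and *pfd-2* had no candidate.

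Among the J-domain genes, 7 of 29 were bound (24.1%, against 8.39% of all genes) and 22 had a pooled candidate (75.9%, against 41.0%). Under assignment to the nearest start 3 of the 29 were bound (10.3%), against 6.03% of all genes. The highest was *dnj-19* (WBGene00001037), an HSP70 partner of the DNAJA type, with a region at chrV:5505078-5505401. Its signal was 131.3 at rank 68, with 55.2 at rank 56 in replicate 1 and 75.8 at rank 102 in replicate 2. Its summit lay 383 bp upstream of *dnj-19* and 13 bp from the start of the nuclear receptor gene *nhr-47*. *dnj-13* (WBGene00001031), a DNAJB1-type partner, had a region at chrII:11545322-11545645 with a signal of 87.3 and rank 241, with rank 108 in replicate 1 (signal 46.0) and rank 524 in replicate 2 (signal 39.7). The *dnj-13* summit lay 217 bp upstream within an intron of *dhgd-1* and 656 bp from *F54D5.9*. It was the nearer to *dnj-13*, unlike the case of *dnj-19*.

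*dnj-9* (WBGene00001027) had its own unshared summit 245 bp upstream, with a signal of 95.4 and rank 193 at chrII:4851649-4851972. It ranked 869 in replicate 1 (signal 19.9) and 107 in replicate 2 (signal 74.3). *dnj-11* (WBGene00001029), a homologue of mammalian MIDA1, had a signal of 77.8 and rank 321 at chrIV:6585452-6585775, with rank 298 in replicate 1 (signal 32.7) and rank 396 in replicate 2 (signal 45.8). Its summit lay 257 bp upstream and 214 bp from *F38A5.2*. *dnj-14* (WBGene00001032), which encodes a cysteine string protein of nerve terminals, had a signal of 70.4 and rank 398 at chrX:4711927-4712250. It ranked 324 in replicate 1 (signal 31.6) and 557 in replicate 2 (signal 38.5), and its summit lay 341 bp upstream and 190 bp from *glit-1*. The last 3 were thus within the top 1000 regions of both replicates.

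The weakest bound J-domain genes lay near the end of the optimal list. *dnj-10* (WBGene00001028), a mitochondrial J-domain gene, had a signal of 34.4 and rank 1463 at chrIII:8630870-8631193, with rank 3194 in replicate 1 (signal 10) and rank 1341 in replicate 2 (signal 22.5). *dnj-29* (WBGene00001047), the SEC63 homologue of the endoplasmic reticulum, had a signal of 28.2 and rank 1882, with rank 1880 in replicate 1 (signal 13.0) and rank 1697 in replicate 2 (signal 19.0). The *dnj-10* summit lay 133 bp upstream in no other window, and that of *dnj-29* lay 371 bp upstream, 157 bp from *ndua-2* and 715 bp from *fld-1*. Just outside the list stood *dnj-1* with a signal of 25.2 at rank 2207 and *dnj-23* with 23.9 at rank 2388. The 15 unbound J-domain genes with a candidate had signals from 5.59 to 25.2, and the other 7 had no pooled candidate. Signal around the list's end was graded, with *dnj-29* at 28.2 inside it and *pfd-6* at 27.6 and *cct-5* at 27.5 outside it.

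The replicates placed the peaks of the bound genes at nearly the same bases, although the optimal list was itself derived from both. All 19 summits were matched within 100 bp in both replicate lists, with a median shift of 7 bp in replicate 1 and 1.00 bp in replicate 2. The largest shifts were 63 bp and 31 bp. Among the strongest 1917 regions, 16 of the 19 were present in both replicates, and *hsp-110*, *pfd-5* and *dnj-10* were present in replicate 2 alone. Of all 1675 bound genes, 1063 had a peak present among those regions in both replicates. Replicate 2 gave the better rank to 11 of the 19 genes and replicate 1 to 8. The 2 replicates also differ in stock source and in the recorded fragmentation, and the part of these differences in the ranks was not tested.

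**Figure D3:**
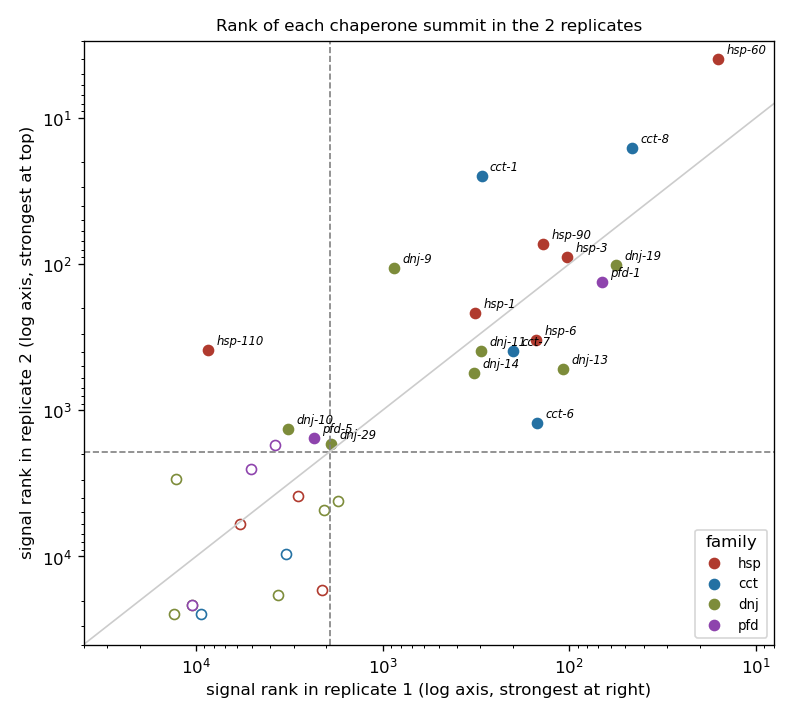
Rank of each chaperone summit in replicate 1 against its rank in replicate 2, on log axes where rank 1 is the strongest region, for the 33 genes matched in both lists, with bound genes filled and dashed lines at rank 1917. *hsp-60* stands at ranks 16 and 4, and *hsp-110* lies farthest from equal ranks among the bound genes, at 8587 and 385.

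The summits of the 19 bound genes all lay upstream of the transcript start, between 76 and 596 bp with a median of 315.0 bp. Among all bound genes the median upstream distance was 234.0 bp, and 94.7% of summits were upstream. Of the 19 summits, 17 lay between genes and 2 lay in introns, and no summit served 2 chaperone genes. Another gene's promoter window held the summit in 15 of the 19 cases (78.9%), against 54.1% of all bound genes, and in 14 of these a neighbour on the opposite strand was involved. The 4 genes with a summit of their own were *hsp-3*, *hsp-1*, *dnj-9* and *dnj-10*. A peak between divergent starts cannot be assigned to either gene from these data.

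**Figure D4:**
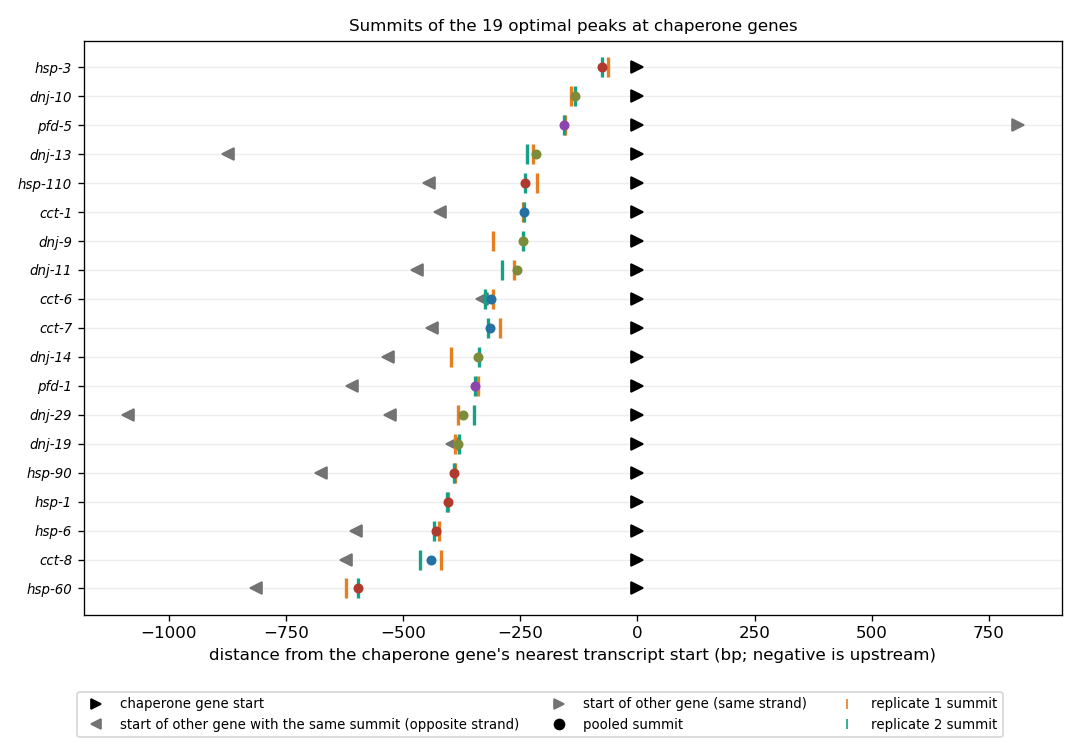
Position of the LIN-11 summit relative to the transcript start of each bound chaperone gene, in bp with upstream negative, with the summits of the 2 replicates beside that of the pooled list, and grey arrowheads for the starts of other genes that share the summit. All 19 pooled summits lie upstream, from 76 bp at *hsp-3* to 596 bp at *hsp-60*, and replicate summits lie within 63 bp of the pooled ones.

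Short words were counted in the 101 bases around each summit, on both strands. The homeodomain words TAATTA and TAATTG occurred at 0 of the 19 bound chaperone summits. At all 1243 optimal summits in promoters they occurred at 1.21% and 2.98%, and at the 8320 other pooled summits in promoters at 2.96% and 5.38%. At the 27 chaperone summits outside the optimal list, TAATTA occurred at 0 and TAATTG at 3 (11.1%). The words for neighbouring inverted units of the heat shock element, which is the site of the heat shock factor HSF-1, are GAANNTTC and TTCNNGAA. GAANNTTC occurred at 4 of the 19 bound chaperone summits (21.1%), against 2.25% of all optimal promoter summits, and TTCNNGAA at 2 (10.5%), against 2.41%. Each reads the same on both strands. Both words occurred at *hsp-110*, where they overlap in the run printed above, and at *pfd-5*. Either word therefore occurred at 4 of the 19 (21.1%), against 4.02%. These 4 were *hsp-90*, *dnj-13*, *hsp-110* and *pfd-5*.

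Heat shock words were also present at the weaker chaperone summits. Within 50 bp, either heat shock word occurred at 6 of the 27 chaperone summits outside the optimal list (22.2%) and at 10.9% of the other pooled promoter summits. In a window of 100 bp on each side, either word occurred at 11 of the 19 bound summits (57.9%), including *hsp-60*, *hsp-1*, *cct-8* and *cct-1*, against 14.7% of all optimal promoter summits. In that window it occurred at 10 of the 27 others (37.0%), against 21.3% of the other pooled promoter summits. The *hsp-16.2* run printed above held neither word, but both lay within 100 bp of its summit. At *hsp-16.41*, whose run is not printed, TTCNNGAA lay within 50 bp of the summit. The words TGACGTG, known from unfolded-protein-response promoters, and GTAAACA, the forkhead word read by DAF-16, occurred at 0 of the 19 bound summits within 50 bp. Of all optimal promoter summits, 1.93% and 1.53% held them, so these counts are near the background. At 100 bp TGACGTG occurred at 1 (5.26%), that of the BiP gene *hsp-3*, against 3.38% of all optimal promoter summits. A word is a match of letters and not a measured site, and its absence concerns these windows alone.

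Other words were picked after the printed sequences had been read and are given as description. CCAATC, which holds the CCAAT-box letters, occurred at 4 of the 19 bound summits (21.1%), those of *hsp-60*, *hsp-90*, *hsp-6* and *hsp-3*. It occurred at 3.06% of all optimal promoter summits and 4.47% of the other pooled promoter summits. All 4 are among the printed runs from which the word was picked, so the higher share follows in part from that choice. GGTCTC occurred at 4 (21.1%), those of *hsp-6*, *cct-1*, *cct-6* and *hsp-110*, against 14.7%. CTGCGTC occurred at 1 (5.26%), that of *hsp-3*, against 11.6%. The GC content of the 101 bases had a median of 48.5% at the 19 bound summits, between 50.5% for all optimal promoter summits and 42.6% for the 27 weaker chaperone summits.

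Genes that work with the chaperones were described from a list of 48 names, of which 47 were annotated. Of the 47, 24 were bound (51.1%), against the 8.39% of all genes, and their median signal among the bound was 59.0. Under assignment to the nearest start, 19 of these 24 kept their peak (79.2%), where 6 of the 19 bound chaperone genes kept theirs (31.6%). The 19 were 40.4% of the 47 listed genes, against 6.03% of all genes. The list was drawn up with results of these data known.

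Of the HSP70 and HSP90 co-chaperones, 7 of 11 were bound (63.6%), against 8.39% of all genes. Their signals were 70.9 at *sti-1*, which bridges HSP70 and HSP90, 58.8 at *daf-41*, a p23 protein, 57.8 at *bag-1*, 48.0 at *fkb-6*, 44.2 at *ahsa-1*, 39.3 at *unc-23* and 28.4 at *hip-1*. Both genes of the nascent polypeptide-associated complex were bound, *icd-2* at 123.3 and *icd-1* at 63.4. Of the genes for folding in the endoplasmic reticulum, where HSP-3 acts, 7 of 12 were bound (58.3%, against 8.39% of all genes). These were *uggt-1* at 134.1, the GRP94 gene *enpl-1* at 105.2, *pdi-6* at 97.1, the calreticulin gene *crt-1* at 93.7, *pdi-3* at 74.4, *pdi-2* at 60.4 and the calnexin gene *cnx-1* at 37.7. The other 5 of the 12 were not bound.

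Of the stress regulators, 5 of 15 genes were bound (33.3%), against 8.39% of all genes. The bound ones were 3 genes of the unfolded protein response, *xbp-1* at 87.3, *ire-1* at 59.3 and *atf-6* at 53.3, with *atf-4* at 39.9 and the forkhead gene *daf-16* at 29.9. Another gene of that response, *pek-1*, was not bound and had a candidate of signal 9.70 at rank 11648. The heat shock factor gene *hsf-1* was not bound and had a candidate of signal 9.99, and *atfs-1*, the regulator of the mitochondrial unfolded protein response, had one of 24.2. Of the mitochondrial quality control genes, 3 of 7 were bound (42.9%, against 8.39% of all genes). These were the prohibitin genes *phb-2* at 62.9 and *phb-1* at 44.6 and the protease gene *ymel-1* at 33.2. The differences between these groups were not tested.

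By chromosome, bound chaperone genes numbered 5 of 12 on chromosome III, where 13.6% of all genes were bound, 4 of 11 on IV (7.38% of all genes), 4 of 14 on V (4.91%), 3 of 12 on II (7.63%), 2 of 5 on X (8.90%) and 1 of 11 on I (11.2%). Bound chaperone genes were therefore spread over all chromosomes, with the *hsp* genes among them on III, IV, V and X.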

How the data were processed

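The files were lists of regions in narrowPeak form. Per the notes deposited with them, regions were called against a control alignment, per replicate and on pooled reads, and the irreproducible discovery rate procedure turned these into the optimal list. The peak caller, aligner, threshold and read numbers were not given in the sources used here. The authors deposited a signal value for each region, used for ranking, and a −log10 q-value, whose ceiling of 3.54 was shared by 1749 pooled regions and by 18 of the 19 bound members, so q-values were not used for ranking. Summits (region start plus the deposited offset) on ce11 were set against Ensembl 115 annotation with Python 3.11.15, numpy 2.4.6 and pandas 2.3.3. A summit counted for every gene whose window held it, and distance is to that gene's nearest start. Replicate summits matched at 100 bp or less. Lists on ce10 were not used. No filter on signal was applied. The gene assignment was tested on simulated data.

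The members, the *hsp* classes, the related genes and the words were chosen with earlier results of these data known. The genes named were all *hsp*, *cct* and *pfd* genes, bound *dnj* genes, the 5 members on each side of the list's end, genes sharing a bound summit, and bound related genes. *hsf-1*, *atfs-1* and *pek-1* were named after their values were seen. Alternatives covered the window, nearest-start assignment, summit distance, the stronger 50% of peaks, the sequence window and each replicate left out, for which the strongest 1917 regions of the other replicate stood in. Keeping unique windows alone was added after seeing the data.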

Additional observations from a re-analysis of the deposited data

How the results depend on the processing

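The bound count rested most on gene assignment. With the nearest start only, it fell from 19 to 6 for all chaperone genes, to 2 for *hsp*, 0 for *cct*, 3 for *dnj*, 1 for *pfd* and 2 for constitutive *hsp* genes, and genes with a candidate in both replicates fell from 39 to 20, while the shares of all genes fell to 6.03% and 20.8%. The median signal percentile of genes with a pooled candidate, 75.5 among all such genes, was 67.3 with the nearest start and 71.0 with a window of 2000 bp upstream. Among the stronger 50% of peaks, 16 of the 65 chaperone genes (24.6%) and 1 of the 6 *pfd* genes (16.7%) remained, against 4.84% of all genes. With 100 bp on each side of the summit, TAATTG and TGACGTG occurred at 1 bound summit each, GAANNTTC at 8 and TTCNNGAA at 6. Of all optimal promoter summits, 8.61%, 3.38%, 8.77% and 8.21% held these words, in the same order. Leaving out 1 replicate gave 18 to 21 bound chaperone genes, 5 to 6 *hsp*, 4 to 5 *cct*, 7 to 8 *dnj*, 1 to 3 *pfd*, 0 stress-inducible and 5 to 6 constitutive *hsp* genes, 22 related genes, and a percentile of 74.3 to 78.7. The share of all genes bound was then 8.30% without replicate 1 and 7.79% without replicate 2. Without replicate 1, *dnj-1* and *pfd-6* were gained. Without replicate 2, *cct-4* and *dnj-28* were gained and *dnj-10*, *hsp-110* and *pfd-5* were lost, leaving 1 *pfd* gene. No paired analysis was possible because there was 1 group only and no result came from a test. Read depth is unknown, so weak candidates cannot be separated from background.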
